A study of Oryza sativa with 6 samples.

Results

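The expression of 60 genes of calcium signalling and of potassium, sodium, anion and proton transport was followed in leaves of the rice lines PIF4v3m and WYG7. They were found by words in the Swiss-Prot description of each gene in the deposited table, such as calmodulin, calcium-, CBL-interacting, annexin, potassium or anion channel. The words gave 60 of the 2995 genes of the table, and the gene under the ID NHX1, described there as a cation/calcium exchanger, is not among them. PIF4v3m is the edited line: the study's methods describe a single line made with CRISPR/Cas9 in the WYG7 background, in which the v3 SNP of the *OsPIL13* promoter was deleted and the gene was knocked down but not lost. The paper writes this line as PIL13v3m, a match that the labels do not spell out. WYG7 is the unedited parent. There were 3 leaf libraries per line, and the labels give plants of 3 weeks for both, whereas the study's methods place the treatment later in growth. Both lines had been under fluctuating light together with drought (FL-DS), so neither an unstressed plant nor the effect of the stress itself was measured, and how many plants went into a library is not given in the sources used here.

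Calcium enters the cytosol through channels and is removed by pumps and exchangers, and the transient rise is read by proteins with EF-hand loops. Calcineurin B-like proteins (CBLs) bind calcium and then dock onto CBL-interacting protein kinases (CIPKs), calmodulin-like proteins (CMLs) pass the signal to calmodulin-binding partners, and calcium-dependent protein kinases (CDPKs) carry sensor and kinase in a single protein. In leaves these kinases act on ion channels, transporters and NADPH oxidases, and the movement of potassium and anions across the plasma membrane and the vacuolar membrane changes the turgor of guard cells and so the stomatal aperture. HAK transporters take up potassium, TPK channels release it from the vacuole, and proton pumps supply the gradient that drives much of this transport.

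The deposited values are FPKM, fragment counts scaled by transcript length and by library size, and each of the 2995 genes carries a mark of the authors as up or down. The table is thus a list of genes already chosen for differing between these same libraries, and a call among them is not independent evidence of change. Values were compared as log2(FPKM + 1) with limma, a linear model fitted over all listed genes, and the limit for a call was a p of 0.05 after Benjamini-Hochberg adjustment over the listed genes. The study calls its replicates independent, while the labels do not say whether each library came from separate plants, and the p-values measure the spread between these libraries. All 60 genes were called, against 99.9% of all listed genes, with limma adjusted p from 6.33e-07 to 0.0312. Of the 60 genes, 33 rose in PIF4v3m (55.0%), against 45.8% of all listed genes, and 27 fell (45.0%), against 54.1% of all listed genes. The lines did not overlap in 59 of the 60 genes, against 99.4% of all listed genes, and in each of those the exact two-sided permutation test gave p = 0.1, the smallest that 3 libraries against 3 can give.

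The hour at which leaves were taken is not recorded for either line, and for every difference given here an effect of the hour and an effect of the edit cannot be told apart. In whole leaves, fewer cells of a type and less RNA per cell cannot be told apart either. Of the leaf mesophyll markers 4 were listed, 3 genes for chlorophyll a-b binding proteins that fell and 1 for the Rubisco small subunit that rose, and their summed level was 4110 to 5773 FPKM in PIF4v3m libraries and 12263 to 13095 FPKM in WYG7 libraries. The dividing-cell list was made of histone H3, histone H4, cyclin-A and cyclin-B. Of it 3 histone H3 and H4 genes were listed and no cyclin gene. The 3 histone genes summed to 31.5 to 35.0 FPKM in PIF4v3m libraries and 9.62 to 14.4 FPKM in WYG7 libraries. Of the stomatal list 1 gene, EPIDERMAL PATTERNING FACTOR-like protein 2 (LOC4342336), was listed, at 0.503 ± 0.173 FPKM in PIF4v3m and 1.23 ± 0.0928 FPKM in WYG7 (SD, n = 3). It was matched only by the words of its description, and this low gene alone does not measure the share of stomatal cells. Of the phloem list 0 genes were listed. No marker was at 0 in a whole line, and the part of these shifts in the results below was not tested. WYG7 replicate 1 had the lowest library weight in limma (0.459, against 0.958 to 1.53 for the others). All 60 calls held without it, which was largely set in advance, as the genes were listed for differing in these same libraries.

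**Figure D1:**
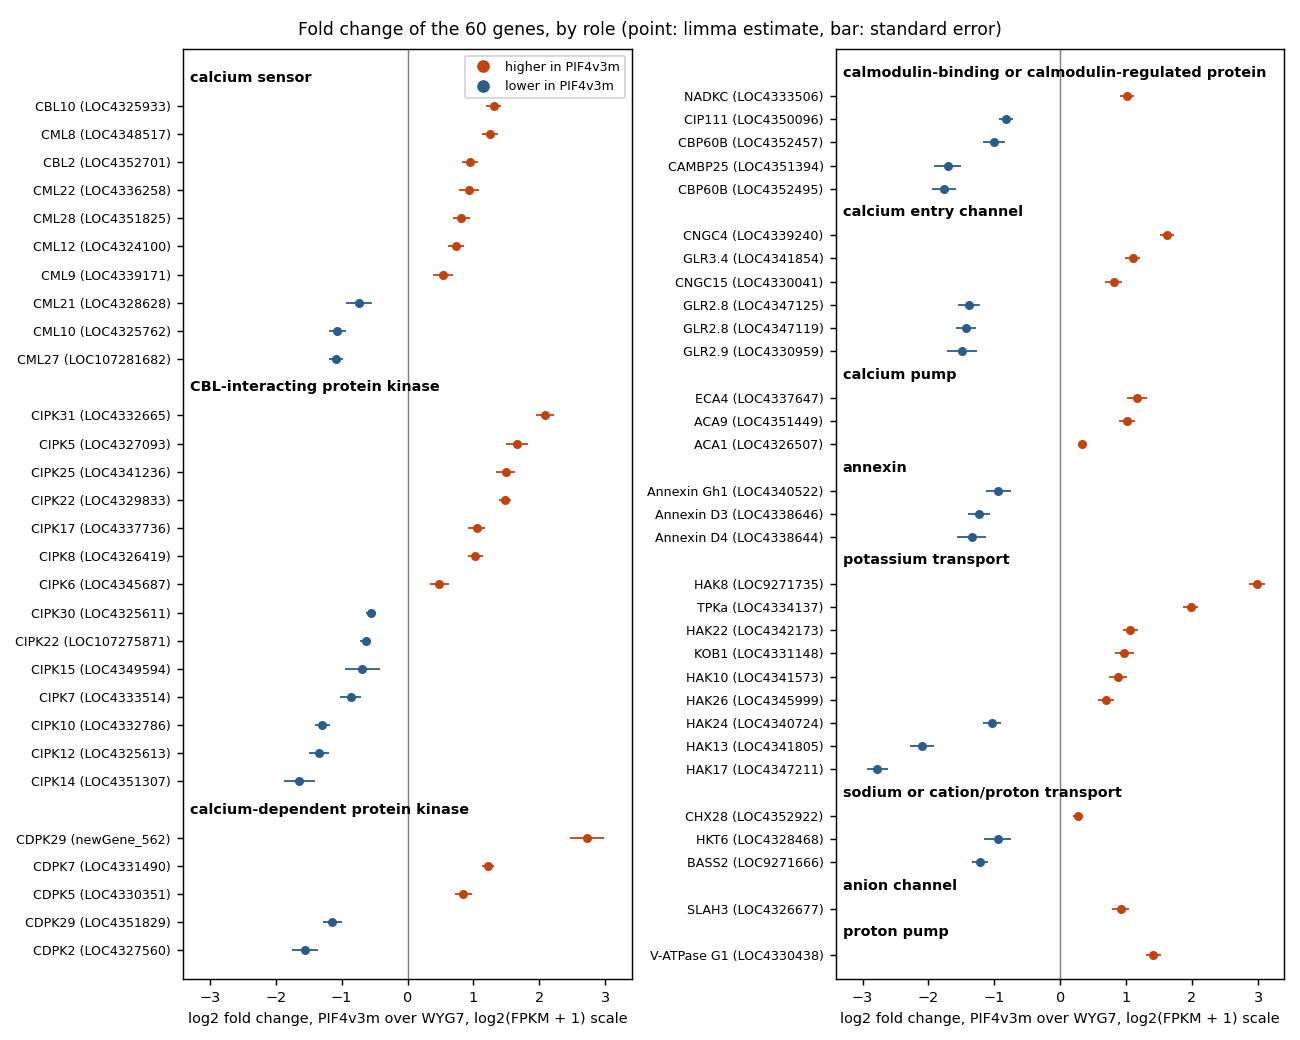
Log2 fold change of each of the 60 genes, PIF4v3m over WYG7, on the log2(FPKM + 1) scale from limma, with the standard error as a bar and the genes grouped by role. The 33 genes to the right of 0 and the 27 to the left are spread over most roles, while the 3 calcium pumps lie to the right and the 3 annexins to the left.

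The summed level of these genes was higher in PIF4v3m. The 60 genes together had 651, 732 and 720.4 FPKM in the PIF4v3m libraries, against 428, 411 and 386 FPKM in the WYG7 libraries, while all listed genes together had 67146 to 72353 FPKM in PIF4v3m libraries and 73597 to 83228 FPKM in WYG7 libraries. Without CIPK31, the most abundant of them in PIF4v3m, the sums were 507 to 537 FPKM in PIF4v3m and 348 to 385 FPKM in WYG7, still with no overlap. The 5 genes with a mean below 0.1 FPKM in PIF4v3m (CML27, CDPK2, a gene described as CDPK29, CIPK30 and a gene described as GLR2.8) were expressed at 0.511 to 2.13 FPKM in WYG7.

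**Figure D2:**
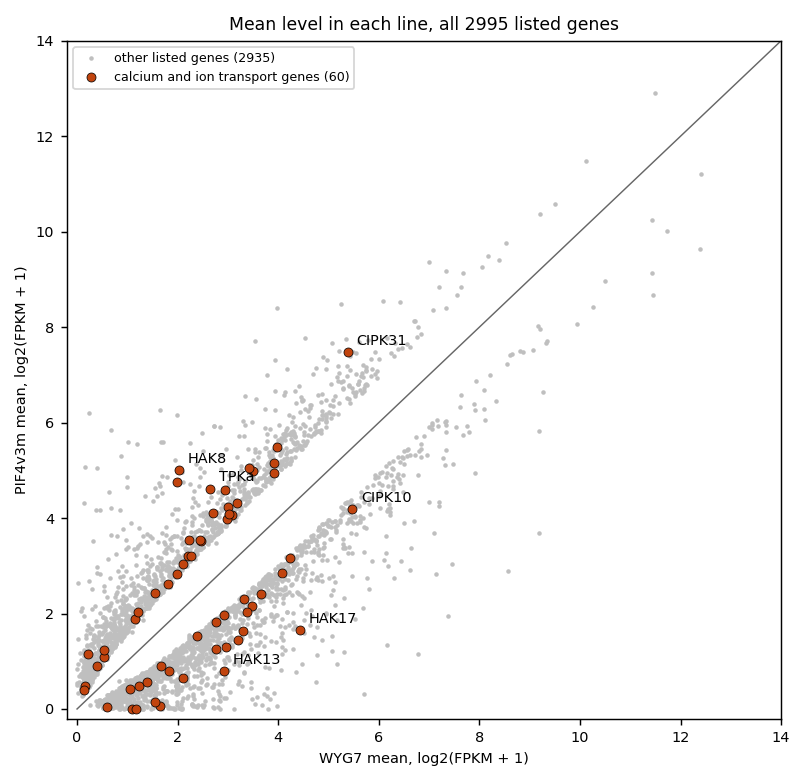
Mean level in PIF4v3m (vertical axis) against WYG7 (horizontal axis), both as log2(FPKM + 1), for the 60 genes (filled circles) and the other 2935 listed genes (grey), with the line of equal levels. The empty band along the line shows that only genes called by the authors are listed; HAK8 and CIPK31 stand above it and HAK17 and HAK13 below it.

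The sizes of the changes were near those of all listed genes. The median log2 fold change was 0.51 over the 60 genes and -0.56 over all listed genes. Because the genes were listed for differing, few values lie near 0, and each median mainly follows how many genes rose or fell. It is not the size of a typical change. The ratio of mean FPKM, taken as the higher line over the lower, was under 3 in 34 of the 60 genes (56.7%, against 51.1% of all listed genes) and over 5 in 10 genes (16.7%, against 21.5%). The smallest was 2.05 among the 60 genes and 1.60 among all listed genes. The log2(FPKM + 1) scale understates the change of genes with low FPKM. On it, 797 of the 2995 listed genes (26.6%) were more than 2-fold higher and 1016 (33.9%) more than 2-fold lower. Of the 60 genes, 19 were more than 2-fold higher and 19 more than 2-fold lower. That split depended on the offset and the scaling, with 33 and 27 genes at an offset of 0.1 FPKM and 29 and 8 after median-of-ratios scaling, which moved the median of all listed genes to -0.26 (quantile normalization moved it to -0.33, with 27 and 15 genes). The table holds no read counts per gene, so the reads behind values near 0 are not known.

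Among the calcium sensors, 7 of 10 genes rose (70.0%, against 45.8% of all listed genes) and 3 fell (30.0%, against 54.1%). Both CBLs rose. CBL10 (LOC4325933), which in Arabidopsis works with a CIPK in shoot salt tolerance, had 11.1, 10.99 and 9.68 FPKM in PIF4v3m, against 3.56, 3.60 and 3.87 FPKM in WYG7. CBL2 (LOC4352701), which in Arabidopsis sits at the vacuolar membrane, had 8.41, 8.05 and 8.35 FPKM in PIF4v3m, against 4.43, 3.35 and 3.71 FPKM in WYG7. The libraries of each line lay close together for both genes, and the log2 fold changes were 1.31 (standard error 0.11, limma adjusted p = 1.31e-05) for CBL10 and 0.95 (standard error 0.12, limma adjusted p = 1.18e-04) for CBL2.

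Of the 8 CMLs, EF-hand proteins related to calmodulin, 5 rose and 3 fell. CML8 (LOC4348517), the most highly expressed of the sensors in PIF4v3m, had 33.4, 37.1 and 33.7 FPKM in PIF4v3m, against 16.9, 12.9 and 12.8 FPKM in WYG7. CML10 (LOC4325762) went the other way, with 8.18, 8.38 and 7.35 FPKM in PIF4v3m, against 21.5, 16.0 and 16.2 FPKM in WYG7. The order of these sensors thus differed between the lines, with CML8 above CML10 in each PIF4v3m library and CML10 above CML8 in each WYG7 library. CML22 (LOC4336258), CML28 (LOC4351825) and CML12 (LOC4324100) also rose, with ratios of mean FPKM of 2.18, 2.34 and 2.22.

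The remaining CMLs were low in both lines. CML9 (LOC4339171) had 1.14 ± 0.446 FPKM in PIF4v3m and 0.457 ± 0.135 FPKM in WYG7 (SD, n = 3), and its highest PIF4v3m library, replicate 1 at 1.65 FPKM, stood apart from the other PIF4v3m libraries at 0.816 and 0.954 FPKM. CML21 (LOC4328628) had 0.870 ± 0.276 FPKM in PIF4v3m and 2.16 ± 0.810 FPKM in WYG7, and its call was lost after median-of-ratios scaling (adjusted p = 0.0969 in limma). The gene described as CML27 (LOC107281682) was listed at 0 in all 3 PIF4v3m libraries, against 1.48, 1.07 and 0.873 FPKM in WYG7, so no fold is given. Another annotation column names it calmodulin-like protein 5.

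The CIPKs were split evenly, 7 of 14 higher and 7 lower, but the higher ones held most of the transcripts. CIPK31 (LOC4332665) was the most highly expressed of all 60 genes in PIF4v3m, with 144, 206 and 183 FPKM in PIF4v3m, against 43.5, 39.9 and 38.3 FPKM in WYG7. Its log2 fold change was 2.09 (standard error 0.14, limma adjusted p = 4.05e-06), and the lowest PIF4v3m library was more than 3 times the highest WYG7 library. CIPK10 (LOC4332786) was the most highly expressed of the 60 genes in WYG7, with 14.6, 19.6 and 17.3 FPKM in PIF4v3m, against 42.1, 43.0 and 44.7 FPKM in WYG7. In WYG7, CIPK10 and CIPK31 were thus at like levels, and in PIF4v3m CIPK31 was higher than CIPK10 in every library.

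CIPK25 (LOC4341236) followed the same direction as CIPK31, with 34.8, 44.5 and 52.3 FPKM in PIF4v3m, against 13.9, 15.0 and 15.4 FPKM in WYG7. CIPK5 (LOC4327093) had 19.8, 23.8 and 26.0 FPKM in PIF4v3m, against 5.34, 8.28 and 6.45 FPKM in WYG7. CIPK8 (LOC4326419), whose Arabidopsis namesake takes part in nitrate signalling, rose less, with 29.9 ± 1.16 FPKM in PIF4v3m and 14.2 ± 1.76 FPKM in WYG7 (SD, n = 3). CIPK17 (LOC4337736) had 10.5 ± 1.46 FPKM in PIF4v3m and 4.55 ± 0.187 FPKM in WYG7. CIPK6 (LOC4345687) was low in every library, with 0.521, 0.889 and 1.16 FPKM in PIF4v3m, against 0.199, 0.290 and 0.480 FPKM in WYG7.

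The seventh of the higher CIPKs is doubtful by name. LOC4329833 is described as CIPK22 in Swiss-Prot and had 28.6, 32.4 and 31.0 FPKM in PIF4v3m, against 10.3, 10.7 and 9.97 FPKM in WYG7. Its KEGG and NR columns name an AP2-associated kinase and a probable serine/threonine kinase, and it is the only one of the 14 without the term signal transduction in its GO column. Without it, 6 CIPKs rose and 7 fell. The other gene described as CIPK22 (LOC107275871), for which NR gives the same name, fell to 0.386, 0.334 and 0.283 FPKM in PIF4v3m, against 1.08, 1.07 and 1.05 FPKM in WYG7.

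Of the lower CIPKs, CIPK14 (LOC4351307) had the largest change on the log2(FPKM + 1) scale, -1.64 (standard error 0.23), with 1.60, 1.89 and 2.85 FPKM in PIF4v3m, against 5.95, 11.02 and 9.51 FPKM in WYG7. CIPK15 (LOC4349594), which in rice connects low oxygen to sugar signalling in flooded seedlings, had 0.197, 0.378 and 0.610 FPKM in PIF4v3m, against 0.493, 2.31 and 1.25 FPKM in WYG7. It was the only one of the 60 genes whose lines overlapped, as WYG7 replicate 1 lay below PIF4v3m replicate 3 (exact permutation p = 0.2, two-sided). Its limma call (adjusted p = 0.0312) was lost without WYG7 replicate 2 or 3 or without PIF4v3m replicate 1 or 2, with adjusted p of 0.0750, 0.0698, 0.1005 and 0.0794, and also after quantile normalization (adjusted p = 0.0977) and median-of-ratios scaling (adjusted p = 0.125). CIPK14 and CIPK15 are close paralogs, and how the authors' quantification divided reads between them is not known.

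CIPK12 (LOC4325613), whose overexpression has been linked to drought tolerance in rice, and CIPK30 (LOC4325611) lie next to each other on chromosome 1, with 0 genes between them in RefSeq assembly ASM3414082v1, and both fell. CIPK12 had 4.20, 3.30 and 2.85 FPKM in PIF4v3m, against 11.4, 9.15 and 10.1 FPKM in WYG7. CIPK30 was close to 0 in PIF4v3m, with 0.0451, 0 and 0.0374 FPKM in PIF4v3m, against 0.660, 0.453 and 0.420 FPKM in WYG7. CIPK7 (LOC4333514) fell by 0.86 on the log2 scale, to 1.89 ± 0.441 FPKM in PIF4v3m, against 4.25 ± 0.453 FPKM in WYG7 (SD, n = 3), and its call was lost after median-of-ratios scaling (adjusted p = 0.0601 in limma). Summed over each group, the 7 higher CIPKs had 265 to 349 FPKM in PIF4v3m and 87.5 to 94.9 FPKM in WYG7, and the 7 lower ones 22.6 to 27.9 FPKM in PIF4v3m and 66.2 to 71.4 FPKM in WYG7. As the groups were formed by direction, the direction of each sum was set in advance. The higher group includes LOC4329833, and CIPK31 gave 178 FPKM of its mean of 317 FPKM in PIF4v3m.

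**Figure D3:**
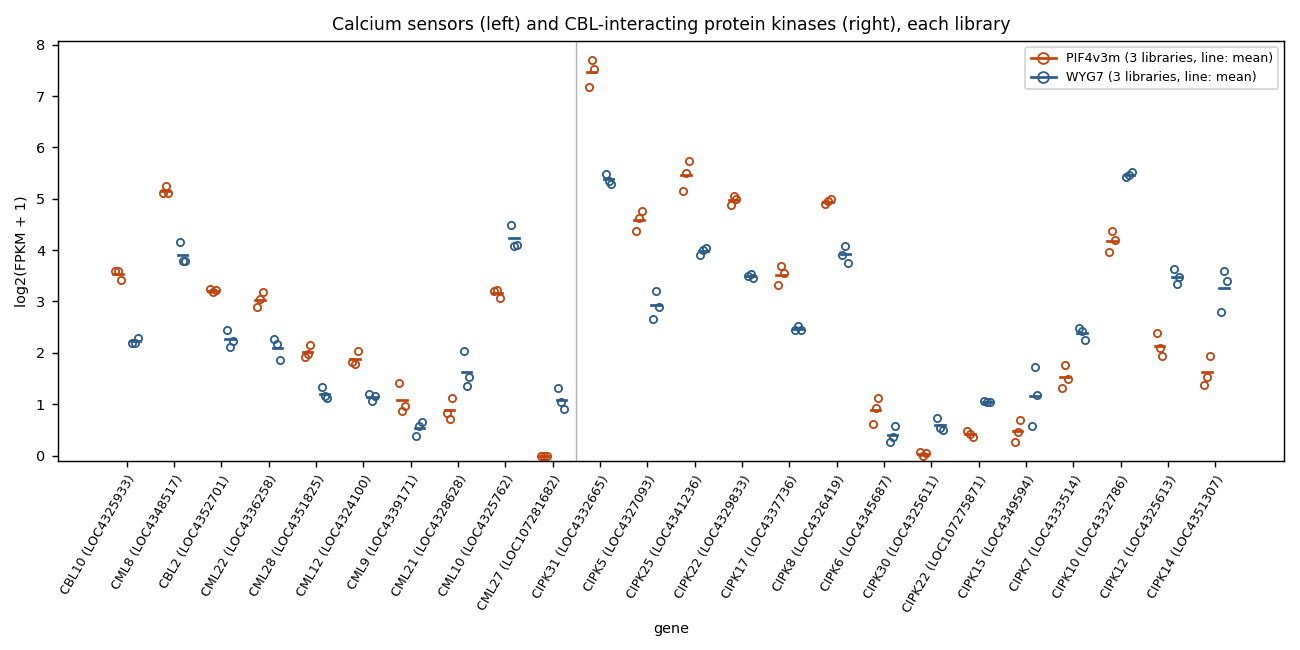
Level of each calcium sensor (left of the grey line) and each CBL-interacting protein kinase (right) as log2(FPKM + 1), with PIF4v3m libraries left of WYG7 libraries for each gene, a circle per library and a short line for the mean. CIPK31 is the highest gene in PIF4v3m, CML27 lies at 0 in PIF4v3m, and only for CIPK15 do the circles of the lines overlap.

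Among the 5 genes described as CDPKs, 3 rose and 2 fell. CDPK7 (LOC4331490) had 16.7, 18.4 and 18.1 FPKM in PIF4v3m, against 6.93, 6.90 and 7.21 FPKM in WYG7, with a log2 fold change of 1.22 (standard error 0.09). CDPK5 (LOC4330351) had 6.05, 6.53 and 5.71 FPKM in PIF4v3m, against 3.30, 2.55 and 3.01 FPKM in WYG7, a ratio of 2.06. The kinases that fell were close to 0 in PIF4v3m. CDPK2 (LOC4327560) had 0.0410, 0.0573 and 0.0215 FPKM in PIF4v3m, against 2.68, 2.57 and 1.15 FPKM in WYG7. The gene described as CDPK29 (LOC4351829) was listed at 0, 0 and 0.0212 FPKM in PIF4v3m, against 1.48, 1.53 and 0.752 FPKM in WYG7. WYG7 replicate 3 was the lowest WYG7 library for both.

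Another gene described as CDPK29, the authors' newly assembled newGene_562, had the largest rise of the 5 on the log2 scale, 2.73 (standard error 0.26, limma adjusted p = 2.19e-05). It had 37.2, 18.4 and 22.8 FPKM in PIF4v3m, against 3.81, 2.16 and 3.00 FPKM in WYG7, and PIF4v3m replicate 1 stood well above the other PIF4v3m libraries. Its name is not settled by the table. The KEGG column files it under calcium/calmodulin-dependent protein kinase I and beside a phosphoenolpyruvate carboxylase kinase 1-like protein, whereas it names the other 4 genes of this group calcium-dependent protein kinase. Phosphoenolpyruvate carboxylase kinase is related to CDPKs in its kinase domain and lacks the EF-hand part. Without newGene_562, 2 CDPKs rose and 2 fell.

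Of the 5 calmodulin-binding or calmodulin-regulated proteins, 4 fell (80.0%, against 54.1% of all listed genes) and 1 rose (20.0%, against 45.8%). Calmodulin-binding protein 25 (LOC4351394), a VQ-motif protein that in Arabidopsis acts in osmotic stress, had 1.33, 2.15 and 0.866 FPKM in PIF4v3m, against 7.005, 5.98 and 7.53 FPKM in WYG7. Of 2 genes described as calmodulin-binding protein 60 B, a family of transcription factors best known from immunity, LOC4352495 had 1.15, 1.74 and 2.33 FPKM in PIF4v3m, against 9.53, 7.39 and 7.64 FPKM in WYG7. The other, LOC4352457, had 3.00, 4.44 and 4.43 FPKM in PIF4v3m, against 10.8, 8.04 and 7.98 FPKM in WYG7. For both genes WYG7 replicate 1 was the highest library and PIF4v3m replicate 1 the lowest. Calmodulin-interacting protein 111 (LOC4350096), an AAA-type ATPase, fell to 0.480 ± 0.106 FPKM in PIF4v3m, against 1.62 ± 0.0910 FPKM in WYG7 (SD, n = 3).

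The gene of this group that rose, LOC4333506, is described as the calmodulin calcium-dependent NAD kinase, which in Arabidopsis makes NADP in response to calcium. It had 15.2, 13.7 and 15.7 FPKM in PIF4v3m, against 6.30, 7.47 and 6.92 FPKM in WYG7, a ratio of 2.16. NR calls it an uncharacterized protein and Pfam gives it a zeta toxin domain.

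Of the 6 calcium entry channels, 3 rose and 3 fell. Both cyclic nucleotide-gated channels rose. CNGC4 (LOC4339240), whose Arabidopsis namesake acts in immunity, had 30.3, 29.5 and 36.2 FPKM in PIF4v3m, against 9.34, 9.65 and 10.2 FPKM in WYG7, a log2 difference of 1.61 with a standard error of 0.11 (limma adjusted p = 4.36e-06). CNGC15 (LOC4330041), known from Medicago as a channel of the nuclear envelope, had 5.03, 5.49 and 4.96 FPKM in PIF4v3m, against 2.83, 2.36 and 2.37 FPKM in WYG7. The PIF4v3m libraries lay above the WYG7 libraries for both, and CNGC15 had the smallest ratio of all 60 genes, 2.05.

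Glutamate receptor-like channels are gated by amino acids, and of the 4 listed, 1 rose and 3 fell. GLR3.4 (LOC4341854) rose, with 11.3, 10.9 and 9.78 FPKM in PIF4v3m, against 4.32, 4.87 and 4.14 FPKM in WYG7. The 3 genes described as clade 2 receptors fell. GLR2.9 (LOC4330959) had 1.18, 0.996 and 1.96 FPKM in PIF4v3m, against 7.96, 4.49 and 4.83 FPKM in WYG7. The gene described as GLR2.8 at LOC4347119 had 0.473, 0.641 and 0.596 FPKM in PIF4v3m, against 4.17, 2.62 and 3.07 FPKM in WYG7. The gene with the same description at LOC4347125, also on chromosome 9, had 0.0871, 0.107 and 0.105 FPKM in PIF4v3m, against 2.67, 1.23 and 1.88 FPKM in WYG7. In all 3 the highest WYG7 library was replicate 1. Their names come from Arabidopsis, and reads shared between members of this family could have been split in the authors' quantification.

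All 3 listed calcium pumps rose, against 45.8% of all listed genes. These ATPases move calcium out of the cytosol and so end the signal. The endoplasmic reticulum-type ATPase described as ECA4 (LOC4337647) had 18.2, 20.1 and 18.9 FPKM in PIF4v3m, against 10.4, 6.55 and 7.30 FPKM in WYG7. The plasma membrane-type ATPase ACA9 (LOC4351449) had 8.16, 8.33 and 8.15 FPKM in PIF4v3m, against 4.15, 3.12 and 3.50 FPKM in WYG7. ACA1 (LOC4326507), of the same type, was low in each library, with 0.406 ± 0.0388 FPKM in PIF4v3m and 0.113 ± 0.00389 FPKM in WYG7 (SD, n = 3). WYG7 replicate 1 was the highest WYG7 library for all 3 pumps, and even so it lay below every PIF4v3m library.

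All 3 listed annexins fell, against 54.1% of all listed genes. Annexins bind membrane phospholipids when calcium is present. Annexin D3 (LOC4338646) had 3.54, 4.68 and 4.79 FPKM in PIF4v3m, against 11.5, 13.9 and 9.39 FPKM in WYG7. Annexin D4 (LOC4338644) had 2.24, 2.98 and 4.08 FPKM in PIF4v3m, against 8.41, 12.6 and 7.43 FPKM in WYG7. These genes lie close together on chromosome 5, with 1 gene between them in ASM3414082v1. The gene described as the cotton annexin Gh1 (LOC4340522), called annexin D1 in NR, had 2.37, 3.07 and 3.26 FPKM in PIF4v3m, against 5.71, 8.70 and 5.32 FPKM in WYG7. PIF4v3m replicate 1 was the lowest PIF4v3m library and WYG7 replicate 2 the highest WYG7 library for all 3. PIF4v3m replicate 1 was also the lowest PIF4v3m library in 27 of 58 of the genes with 3 different values, against 1223 of 2950 listed genes. The call of LOC4340522 was lost after median-of-ratios scaling (adjusted p = 0.0970 in limma).

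**Figure D4:**
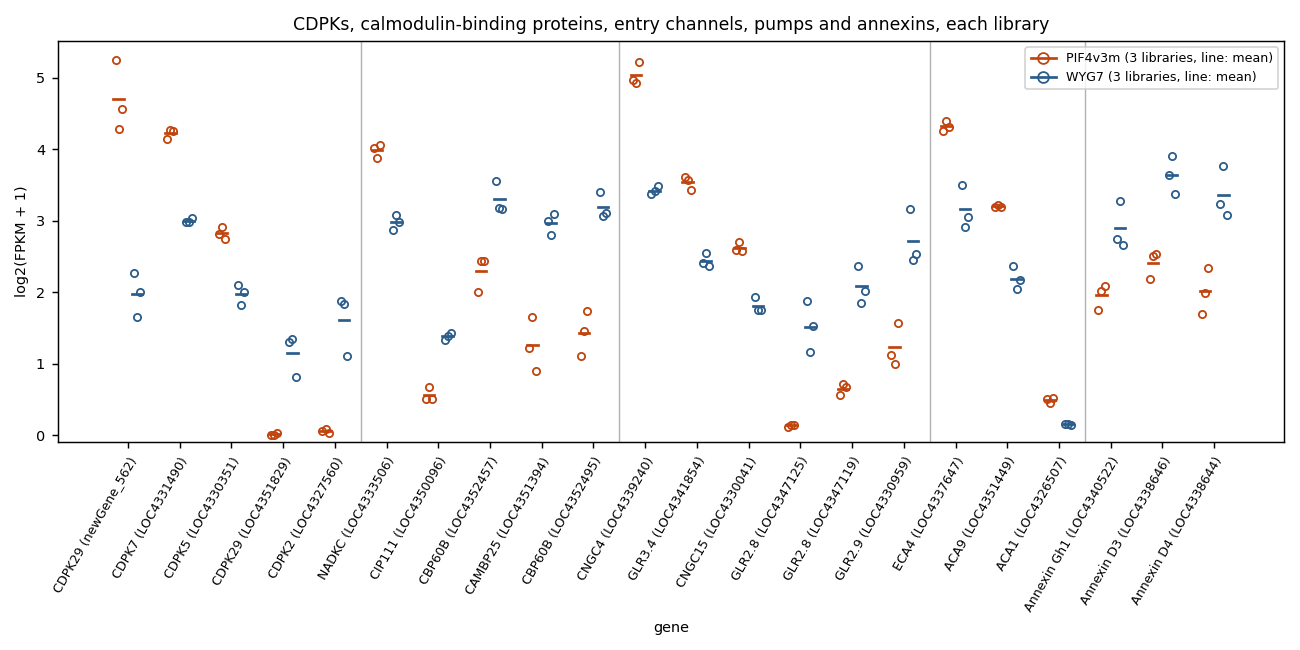
Level of the CDPKs, calmodulin-binding proteins, calcium entry channels, calcium pumps and annexins (from left to right, parted by grey lines) as log2(FPKM + 1), with PIF4v3m libraries left of WYG7 libraries, a circle per library and a short line for the mean. The pumps are higher and the annexins lower in PIF4v3m, and CDPK2, the CDPK29 gene with a LOC number and a GLR2.8 gene lie close to 0 in PIF4v3m.

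Of the 9 genes of potassium transport, 6 rose (66.7%, against 45.8% of all listed genes) and 3 fell (33.3%, against 54.1%). The group held the highest and the lowest log2 difference of the 60 genes on the log2(FPKM + 1) scale. By the ratio of mean FPKM, genes close to 0 in PIF4v3m differed by more. These were the CDPK29 gene LOC4351829 (177), CDPK2 (53.4), the GLR2.8 gene LOC4347125 (19.4) and CIPK30 (18.6). CML27, at 0 in PIF4v3m, has no ratio. HAK8 (LOC9271735) had 31.6, 28.9 and 32.9 FPKM in PIF4v3m, against 2.86, 3.57 and 2.75 FPKM in WYG7. The log2 difference of HAK8, 2.99 with a standard error of 0.12 (limma adjusted p = 6.33e-07), was the highest of the 60 genes on this scale and the 40th highest of the 2995 listed genes, and its ratio of mean FPKM was 10.2. HAK17 (LOC4347211) was nearly its mirror image, with 1.75, 2.08 and 2.57 FPKM in PIF4v3m, against 24.7, 19.2 and 17.8 FPKM in WYG7. The log2 difference of HAK17, -2.78 with a standard error of 0.16 (limma adjusted p = 2.20e-06), was the lowest of the 60 genes on this scale, and WYG7 had 9.65 times the level of PIF4v3m.

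Of the other HAK genes, HAK13 (LOC4341805) fell with HAK17, with 0.827, 0.671 and 0.722 FPKM in PIF4v3m, against 8.83, 5.30 and 5.62 FPKM in WYG7. HAK24 (LOC4340724) fell as well, to 0.735 ± 0.125 FPKM in PIF4v3m, against 2.57 ± 0.483 FPKM in WYG7 (SD, n = 3). WYG7 replicate 1 was the highest library for all 3 of the HAK genes that fell. HAK22 (LOC4342173) rose, with 16.6, 14.1 and 17.5 FPKM in PIF4v3m, against 6.52, 7.79 and 7.18 FPKM in WYG7, as did HAK10 (LOC4341573), with 4.37 ± 0.164 FPKM in PIF4v3m and 1.94 ± 0.356 FPKM in WYG7. HAK26 (LOC4345999) rose to 1.35 ± 0.263 FPKM in PIF4v3m, against 0.453 ± 0.112 FPKM in WYG7.

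The 7 HAK genes together had 57.0, 52.5 and 60.1 FPKM in PIF4v3m, against 48.2, 40.5 and 38.4 FPKM in WYG7. The summed level thus differed far less than its make-up. The 3 genes that fell gave 3.31 to 4.16 FPKM in PIF4v3m and 25.7 to 36.7 FPKM in WYG7, and the 4 that rose 49.1 to 55.9 FPKM in PIF4v3m and 11.5 to 13.6 FPKM in WYG7. The direction of these group sums was set in advance, as the groups were formed by direction. HAK8 was the most abundant HAK transcript in every PIF4v3m library and HAK17 in every WYG7 library.

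TPKa (LOC4334137), a potassium channel of the vacuolar membrane in rice, had 25.5, 23.5 and 21.5 FPKM in PIF4v3m, against 5.51, 4.53 and 5.62 FPKM in WYG7, a log2 difference of 1.98 with a standard error of 0.12 (limma adjusted p = 2.57e-06). KOB1 (LOC4331148), described as the beta subunit of a voltage-gated potassium channel, had 16.2, 17.5 and 13.1 FPKM in PIF4v3m, against 8.87, 6.94 and 6.67 FPKM in WYG7. The channel gene rose more than the subunit gene, with ratios of 4.50 and 2.09.

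Of the 3 sodium and cation transporters, 2 fell and 1 rose. HKT6 (LOC4328468), of the family of high-affinity potassium and sodium transporters, had 1.97, 3.34 and 2.27 FPKM in PIF4v3m, against 4.47, 7.26 and 5.71 FPKM in WYG7, and its call was lost after median-of-ratios scaling (adjusted p = 0.101 in limma). BASS2 (LOC9271666), which brings pyruvate into the chloroplast together with sodium, had 6.09, 6.59 and 5.88 FPKM in PIF4v3m, against 14.3, 18.5 and 14.6 FPKM in WYG7. It entered the group by the word sodium and is a carbon transporter of the chloroplast envelope rather than part of ion balance. The cation/H+ antiporter CHX28 (LOC4352922) rose at a very low level, to 0.324 ± 0.0904 FPKM in PIF4v3m, against 0.0952 ± 0.0249 FPKM in WYG7 (SD, n = 3).

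The only listed anion channel was the S-type channel described as SLAH3 (LOC4326677), which in Arabidopsis releases nitrate and chloride and is activated by CDPKs. It had 1.58, 0.823 and 1.23 FPKM in PIF4v3m, against 0.211, 0.135 and 0.132 FPKM in WYG7, and its ratio of mean FPKM, 7.60, was much larger than its log2 fold change on the offset scale, 0.92 (standard error 0.13). NR calls the same gene SLAH2. The only proton pump gene among the 60 was that of subunit G 1 of the V-type ATPase (LOC4330438), part of the stalk of the vacuolar pump, with 15.2, 18.2 and 15.6 FPKM in PIF4v3m, against 6.04, 5.37 and 5.14 FPKM in WYG7. As this enzyme has many subunits and 1 was listed, the table does not give the level of the pump as a whole. Outside the 60 genes, the pyrophosphate-energized vacuolar membrane proton pump (LOC4331044) had 0.512, 0.414 and 0.419 FPKM in PIF4v3m, against 0.0139, 0 and 0 FPKM in WYG7.

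**Figure D5:**
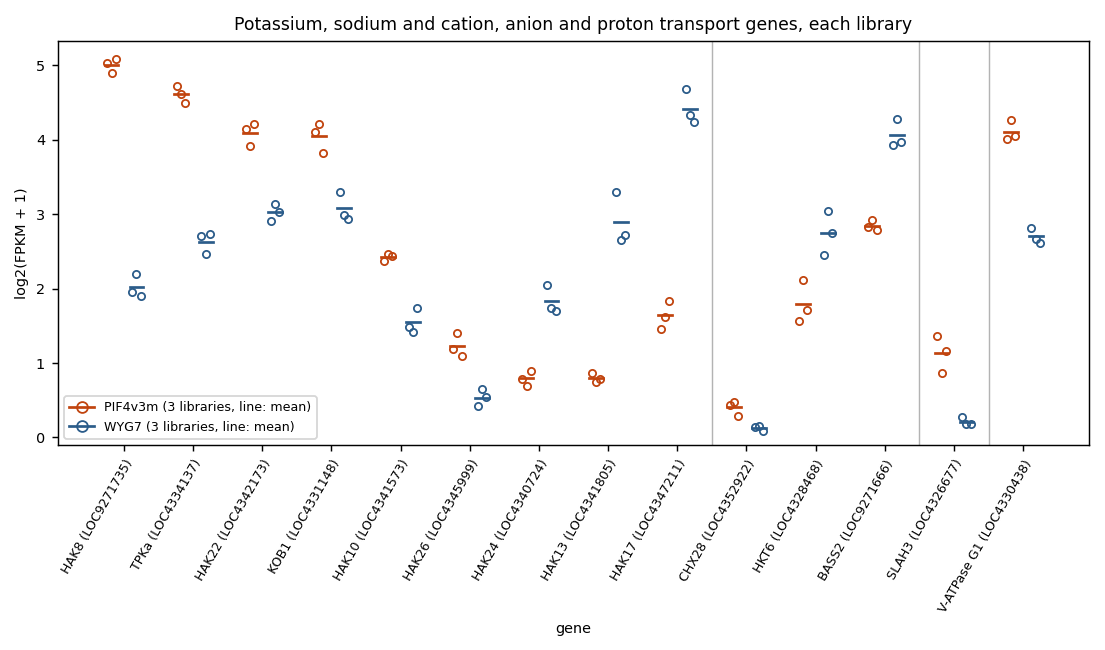
Level of the potassium transport genes, the sodium and cation transporters, the anion channel and the proton pump subunit (from left to right, parted by grey lines) as log2(FPKM + 1), with PIF4v3m libraries left of WYG7 libraries, a circle per library and a short line for the mean. HAK8 and TPKa are far higher and HAK17 and HAK13 far lower in PIF4v3m, and no circles of the lines overlap.

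Other genes of calcium and ion handling, taken from a list of descriptions outside the 60 genes, numbered 16. Of these 6 rose (37.5%, against 45.8% of all listed genes) and 10 fell (62.5%, against 54.1%). The 10 that fell included all 5 genes for calreticulin and calnexin, calcium-binding chaperones of the endoplasmic reticulum, which summed to 218, 247 and 225 FPKM in PIF4v3m, against 859, 573 and 629 FPKM in WYG7. They also included all 4 genes for respiratory burst oxidases, the NADPH oxidases that calcium and CDPKs activate, which summed to 21.9, 22.3 and 23.3 FPKM in PIF4v3m, against 99.1, 82.2 and 83.7 FPKM in WYG7. WYG7 replicate 1 was the highest library in both sums. The 6 that rose included phosphoinositide phospholipase C 2 (LOC4344391), which releases inositol phosphates, with 55.2 ± 2.38 FPKM in PIF4v3m and 26.0 ± 1.60 FPKM in WYG7 (SD, n = 3), and the CSC1-like protein RXW8 (LOC4352878), of a family of osmosensitive channels, with 8.60 ± 0.402 FPKM in PIF4v3m and 2.42 ± 0.147 FPKM in WYG7.

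Within a line, the libraries of these genes differed by a median coefficient of variation of 14.5% in PIF4v3m and 16.3% in WYG7, against 14.9% and 16.6% over all listed genes. In WYG7, replicate 1 was the library farthest from the other 2 in 31 of the 60 genes (51.7%, against 44.5% of all listed genes), and in PIF4v3m replicate 1 was so in 22 of 58 genes with 3 different values (37.9%, against 35.5%). In the KEGG pathway column, 14 of the 60 genes are placed in plant-pathogen interaction, namely all 8 CMLs, 4 CDPKs and both cyclic nucleotide-gated channels. Of these 9 rose (64.3%, against 45.8% of all listed genes) and 5 fell (35.7%, against 54.1%). The names of 40 genes come from rice entries of Swiss-Prot and those of 20 from other species, 18 of them from Arabidopsis.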

How the data were processed

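RNA of leaves was sequenced in 3 PIF4v3m and 3 WYG7 libraries, all under fluctuating light and drought. The deposited FPKM values were made by the authors from reads aligned to a reference and cover only genes that they had called as changed. STAR and Cufflinks are named in the study's methods. Other tools (StringTie 1.3.0, HISAT2 2.0, Bowtie 0.12.2) and a mouse genome build stand in the notes on processing that the submitters gave, so the tools behind the values are not settled. Columns of the authors' fold changes, FDR and up or down marks were not used for any value, and 0 columns of library values were left unused. Read counts per gene were not recovered here. Low FPKM values were checked for whole multiples of a gene's lowest value across libraries (0 of 29 genes, tolerance 0.02). FPKM is scaled by library size, so a read has a different value in each library and this check could not decide the matter. The read totals that the study states were not used here.

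Here log2(FPKM + 1) was compared between lines by limma (version 3.58.1, under R 4.3.3) with its trend option (two-sided, Benjamini-Hochberg over 2995 genes), with a filter of mean FPKM above 0.01 that removed 0 genes. Single genes were also given an exact permutation test. The alternatives were other offsets, filters, scalings, library weights, a replicate block and leaving out each library. In roles with up to 4 genes all genes were named, and in larger ones the 2 highest and 2 lowest changes among genes with a mean of at least 1 FPKM in a line, plus any gene with at least 50 FPKM. Others were named to account for every gene. The genes and lists were chosen with earlier results of these data known. RefSeq assembly ASM3414082v1 matched 56 of the 60 genes and was used for chromosome and gene order only. Promoter and protein sequences were not analysed here.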

Additional observations from a re-analysis of the deposited data

How the results depend on the processing

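All 60 genes kept their direction wherever they were tested. Of 949 values of single genes under the alternatives 939 stayed on their side of the threshold, 10 lost the call and 0 reversed. As the authors had chosen the genes for differing in these same libraries, this was largely set in advance and is not independent evidence of change. The same count over all listed genes is not given here. The lost calls were CIPK15 in 6 settings and, after median-of-ratios scaling, CML21 (LOC4328628, adjusted p = 0.0969 in limma), HKT6, CIPK7 and the annexin LOC4340522. The count that rose was 33 in every setting on all 60 genes at the adjusted p limit of 0.05, and the count that fell was 22 to 27. A stricter adjusted p limit of 0.01 was also applied to the main fit. CIPK6 (adjusted p = 0.0101 in limma) and CIPK15 (adjusted p = 0.0312 in limma) did not pass it. With a mean of at least 1 FPKM required, 27 rose and 22 fell among 49 genes. The median log2 fold change of the 60 genes, 0.51, moved to 1.06 with an offset of 0.1 FPKM, 1.07 with 0.01 FPKM, 0.81 with the filter at 1 FPKM, 0.56 with equal totals, 0.78 with median-of-ratios scaling and 0.72 with quantile normalization, and it was 0.44 to 0.58 with each library left out in turn. The offset and the filter act by their construction, as low genes are weighted more or dropped; for the scalings the cause was not tested. With a replicate block 33 rose and 27 fell, and the median stayed at 0.51. Libraries with the same number did not deviate together (r of -0.07, 0.00 and -0.10 across genes), so the numbers are not shown to pair them.

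The table holds only genes that the authors had called, so unlisted genes of these families cannot be taken as unchanged or absent. With 3 libraries a line, a single line per genotype, no unstressed plants and no read counts per gene, differences in genes near 0 FPKM rest on few values. How reads of close paralogs were divided is not known.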
